A study of Mus musculus with 4 samples.

Results

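In cultured mouse periosteal cells that either had or had not switched on a PDGFRα lineage reporter, 44 genes of the cell division cycle were followed. They were taken by name from the 45802 symbols of the deposited expression table. All 44 had a log2 value in all 4 libraries, as did 14415 symbols of the table in total. The 44 genes were read in 5 groups: 2 proliferation markers (Mki67, Top2a), 7 G1 cyclins and G1/S regulators (Ccnd1, Ccnd2, Ccnd3, Ccne1, Ccne2, Cdk2, E2f1), 12 S-phase genes (Cdc6, Cdt1, Mcm2, Mcm3, Mcm4, Mcm5, Mcm6, Mcm7, Pcna, Rrm1, Rrm2, Tyms), 19 mitotic genes (Ccna2, Ccnb1, Ccnb2, Cdk1, Cdc20, Bub1, Bub1b, Mad2l1, Aurka, Aurkb, Plk1, Birc5, Kif11, Kif20a, Cenpe, Cenpf, Foxm1, Tpx2, Ube2c) and 4 cell cycle inhibitors (Cdkn1a, Cdkn1b, Cdkn2a, Cdkn2b).

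The cells came from the hindlimb periosteum of male mice aged 9 to 10 weeks that carried both Pdgfra-CreER and the mT/mG reporter allele, in which Cre switches a membrane tdTomato to a membrane GFP. Every mouse received 5 daily doses of tamoxifen at 150 mg/kg, and the periosteum was taken 14 days after the last dose, so both populations carried the same alleles and drug. Cells were released with collagenase, grown for 1 passage in αMEM with 15% serum and 10 ng/mL bFGF, and sorted as CD31-CD45-Ter119- cells into mGFP+ cells (PDGFRα reporter+) and mTdtomato+ cells (PDGFRα reporter-). Each population was sequenced in 2 libraries, and the labels give 3 to 6 pooled mice per population. The study's methods give a different, larger number of mice. The reporter records Pdgfra promoter activity at the time of tamoxifen and not after passage, and Pdgfra itself had log2 values of 7.78 and 7.62 in the reporter+ libraries and of 7.87 and 7.44 in the reporter- libraries. The column headings carry the numbers 2 and 3 in each population, which the labels, numbering their replicates 1 and 2, do not explain, and the libraries are named by these numbers here. Nothing in the labels states that same-numbered libraries shared mice or a culture, so p-values measure only the spread between these libraries, which may be technical.

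A cell enters the division cycle when D cyclins, induced by growth factors, start to inactivate the retinoblastoma protein, which frees E2F factors to switch on cyclin E and the genes of DNA replication. The MCM helicase is loaded on origins with the help of Cdc6 and Cdt1, nucleotides are supplied by ribonucleotide reductase and thymidylate synthase, and in G2 a later wave of genes, controlled by the DREAM and MuvB complexes, B-Myb and FoxM1, encodes the mitotic cyclins, kinases, checkpoint proteins and kinesins. The INK4 and CIP/KIP inhibitors restrain the cyclin-dependent kinases. S-phase and mitotic genes thus peak at different times of one cycle, and in bulk RNA a lower value can mean fewer cells in that phase or less RNA per cell, which cannot be told apart here.

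The promoters of the members are shown first, since the S-phase and mitotic genes are read as separate groups below. Windows of 300 bases, from 250 before to 50 after the start of transcription, were read from RefSeq (GRCm38.p6) and were held for 35 of the 44 members. No window was held for Ccnd1, Ccnd2, Ccne2, Mcm4, Ccna2, Aurkb, Kif20a, Foxm1 and Tpx2. Matches were counted by gene, and a gene with several windows counted as a match if any of them held the letters. An E2F site was searched as TTTCCCGC, TTTGGCGC, TTTCGCGC or TTTGCCGC on both strands. It was found for 6 of 11 S-phase genes with a window (54.5%), for 1 of 14 mitotic genes (7.14%) and for 2.6% of all genes with a window. A CHR element was searched as TTTGAA or TTTAAA on both strands. It was found for 12 of 14 mitotic genes (85.7%), for 3 of 11 S-phase genes (27.3%) and for 30.6% of all genes. A CCAAT box, searched as CCAAT on both strands, was found for 12 of 14 mitotic (85.7%) and 8 of 11 S-phase genes (72.7%), against 41.1% of all genes. Both CHR and CCAAT were found for 11 of 14 mitotic genes (78.6%), for 3 of 11 S-phase genes and for 12.2% of all genes. The E2F letters overlap each other in the windows of Mcm5 and Mcm6, and TTTAAA reads the same on both strands. These are matches of letters and not measured sites.

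Stretches of 200 bases, from 170 before to 30 after the start, are printed in the direction of the gene for the 4 mitotic members with a window whose difference between populations changed most from number 2 to number 3. Capitals mark the CHR and CCAAT letters on either strand. Starts are those of RefSeq, and the last 30 bases of each stretch follow the RefSeq start. The Bub1 stretch lies at chr2:127831830-127832029 (minus strand), Cenpe at chr3:135212393-135212592 (plus strand), Cenpf at chr1:189688057-189688256 (minus strand) and Ccnb2 at chr9:70421525-70421724 (minus strand).
Bub1: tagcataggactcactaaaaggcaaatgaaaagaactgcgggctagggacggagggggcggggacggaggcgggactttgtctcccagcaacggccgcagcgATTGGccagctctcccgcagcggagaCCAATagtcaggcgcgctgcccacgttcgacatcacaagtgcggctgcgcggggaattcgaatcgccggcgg
Cenpe: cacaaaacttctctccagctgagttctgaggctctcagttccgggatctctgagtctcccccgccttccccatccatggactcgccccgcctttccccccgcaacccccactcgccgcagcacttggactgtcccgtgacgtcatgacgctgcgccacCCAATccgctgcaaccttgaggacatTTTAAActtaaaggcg
Cenpf: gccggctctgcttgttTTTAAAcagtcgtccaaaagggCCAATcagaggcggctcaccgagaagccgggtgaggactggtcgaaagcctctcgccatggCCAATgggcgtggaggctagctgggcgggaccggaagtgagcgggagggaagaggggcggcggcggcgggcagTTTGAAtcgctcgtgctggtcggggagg
Ccnb2: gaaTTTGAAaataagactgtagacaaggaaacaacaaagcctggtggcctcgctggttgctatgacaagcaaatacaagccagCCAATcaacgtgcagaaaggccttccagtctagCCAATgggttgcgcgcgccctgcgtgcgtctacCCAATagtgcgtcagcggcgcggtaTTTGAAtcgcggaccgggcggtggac
Ccnb2 held 3 CCAAT boxes, which began 87, 54 and 21 bases before the start, and 2 TTTGAA, which began 167 bases before the start and at base 5 of the transcript. Cenpf held 2 CCAAT boxes, a TTTAAA 154 bases before the start and a TTTGAA at base 3, and Cenpe 1 CCAAT box and a TTTAAA at base 15. Bub1 held 2 CCAAT boxes and none of the CHR letters.

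The same stretch follows for the 4 S-phase members with a window that differed most between numbers, and for Mcm6, which hardly did. Capitals mark the E2F, CCAAT and CHR letters. The Mcm5 stretch lies at chr8:75109339-75109538 (plus strand), Cdc6 at chr11:98907981-98908180 (plus strand), Mcm3 at chr1:20820283-20820482 (minus strand), Mcm2 at chr6:88898751-88898950 (minus strand) and Mcm6 at chr1:128359676-128359875 (minus strand).
Mcm5: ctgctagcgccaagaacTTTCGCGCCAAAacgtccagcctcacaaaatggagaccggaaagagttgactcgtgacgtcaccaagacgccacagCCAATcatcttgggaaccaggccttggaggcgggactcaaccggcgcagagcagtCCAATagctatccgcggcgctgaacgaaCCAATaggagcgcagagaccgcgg
Cdc6: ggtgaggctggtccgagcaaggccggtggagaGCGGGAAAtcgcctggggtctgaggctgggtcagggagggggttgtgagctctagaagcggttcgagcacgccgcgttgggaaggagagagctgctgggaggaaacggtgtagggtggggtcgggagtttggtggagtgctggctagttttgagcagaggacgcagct
Mcm3: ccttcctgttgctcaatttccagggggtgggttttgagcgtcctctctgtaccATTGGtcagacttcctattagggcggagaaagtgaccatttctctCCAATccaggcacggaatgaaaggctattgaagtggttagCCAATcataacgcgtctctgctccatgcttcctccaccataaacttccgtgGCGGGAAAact
Mcm2: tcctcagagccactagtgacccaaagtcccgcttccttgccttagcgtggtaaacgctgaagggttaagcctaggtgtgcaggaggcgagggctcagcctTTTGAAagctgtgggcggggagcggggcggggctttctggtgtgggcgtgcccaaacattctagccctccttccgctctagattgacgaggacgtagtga
Mcm6: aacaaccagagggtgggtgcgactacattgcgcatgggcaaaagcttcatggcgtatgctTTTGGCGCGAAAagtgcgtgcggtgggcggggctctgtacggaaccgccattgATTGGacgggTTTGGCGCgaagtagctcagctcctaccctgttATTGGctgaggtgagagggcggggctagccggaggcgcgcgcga
Mcm5 held 2 overlapping E2F matches, which began 153 and 149 bases before the start. Cdc6 held 1 at 138 bases before it, although GENCODE places the start of Cdc6 further upstream, so that the printed Cdc6 stretch lies inside its gene model, and Mcm3 held 1 at base 20 of the transcript. Mcm6 held 3, at 110, 106 and 47 bases before the start, and Mcm2 held none in its whole window. The 9 genes were picked for printing after their values were seen.

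Values are log2 levels after the authors' quantile normalization, under which each library had the same median of 1.48. The linear unit and the sequencing depth are not given in the sources used here, so no interval for counting error is given and levels are compared between libraries only, gene by gene. Libraries of the same number were closer to each other (Pearson's r = 0.984 across genes in number 2 and 0.982 in number 3) than libraries of the same population (r = 0.952 for reporter+ and 0.957 for reporter-). Genes are not independent replicates, so these are descriptions. All 10 stroma markers were measured in every library. Of 20 macrophage markers 19 were measured in every library and Fcgr1 was blank in the reporter- library of number 2. Of 10 endothelial markers 9 were measured throughout. Most markers of neutrophils (7 of 8), erythroid cells (6 of 7), B cells (5 of 5) and T cells (6 of 6) were blank in at least 1 library.

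No member passed the test between PDGFRα reporter+ and reporter- cells over both numbers when the heading number was not used as a block. Limma's moderated test, adjusted by Benjamini-Hochberg over 14415 genes, called 0 members and 0% of all genes at an adjusted p under 0.05, and the adjusted p of Mki67, as of every other member, was 1. At an unadjusted p under 0.05 it marked 3 members, Ccnd1, Ccnd2 and Cdkn1a, beside 0.909% of all genes. This count was 1 without the reporter- library of number 2, 1 without the reporter+ library of number 3, 0 without the reporter+ library of number 2 and 3 without the reporter- library of number 3. With the heading number as a block limma called Ccnd1 (adjusted p = 0.0437), a call that was lost (0.53) without a trend of the variance on the level. Of the 44 members 34 had a lower mean in reporter+ cells, with a median difference of -0.17 beside -0.0035 over all genes. The median hid opposite differences in the 2 numbers. Within number 2 the members' median difference was -0.54, and within number 3 it was 0.15.

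Sets of markers of other cells differed in mean between the populations, though limma without a block called 0% of all genes there. Some of these sets also held calls between numbers. All 19 macrophage markers measured had a higher mean in reporter+ cells, and their summed level (log2 of the summed linear values) was 8.06 to 8.30 in reporter+ and 6.71 to 7.65 in reporter- libraries. Limma called 13 of the 19 higher in number 3 as well, beside 11.5% of all genes. Of 9 endothelial markers 8 had a lower mean in reporter+ cells, with a summed level of 1.87 to 2.03 in reporter+ and 2.41 to 2.78 in reporter- libraries, and Pecam1, the gene of the CD31 used as a gate, was at -4.68 and -4.79 in reporter+ and at -1.99 and -1.11 in reporter- cells. All 5 osteoclast markers measured throughout had a higher mean in reporter+ cells, with a summed level of 3.62 to 4.34 in reporter+ and 1.90 to 2.80 in reporter- libraries and pair medians of 0.13 in number 2 and 2.40 in number 3. Of 7 smooth muscle and pericyte markers 6 had a lower mean in reporter+ cells (summed level 4.04 to 4.80 against 5.17 to 5.42), and 3 were called higher and 1 lower in number 3, beside 11.5% and 9.79% of all genes. Of 3 skeletal muscle markers measured throughout 2 had a lower mean in reporter+ cells (summed level 0.15 to 0.43 against 0.64 to 1.50). Of 4 chondrocyte markers measured throughout 3 were called lower in number 3 (Col2a1, Acan and Sox9), beside 9.79% of all genes, and the fourth, Comp, was not. The summed level of the 4 was 7.99 to 8.15 in reporter+ and 7.21 to 7.57 in reporter- libraries and was nearly all Comp (7.97 to 8.09 and 7.06 to 7.53), while Col2a1 and Sox9 had lower means in reporter+ cells. Between numbers limma called 1 of the 9 endothelial markers higher and 1 lower, near the 11.5% and 9.79% of all genes. It called 0 of the 5 osteoclast and 0 of the 3 skeletal muscle markers. The part of these markers in the differences of the cell cycle genes was not tested.

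**Figure D1:**
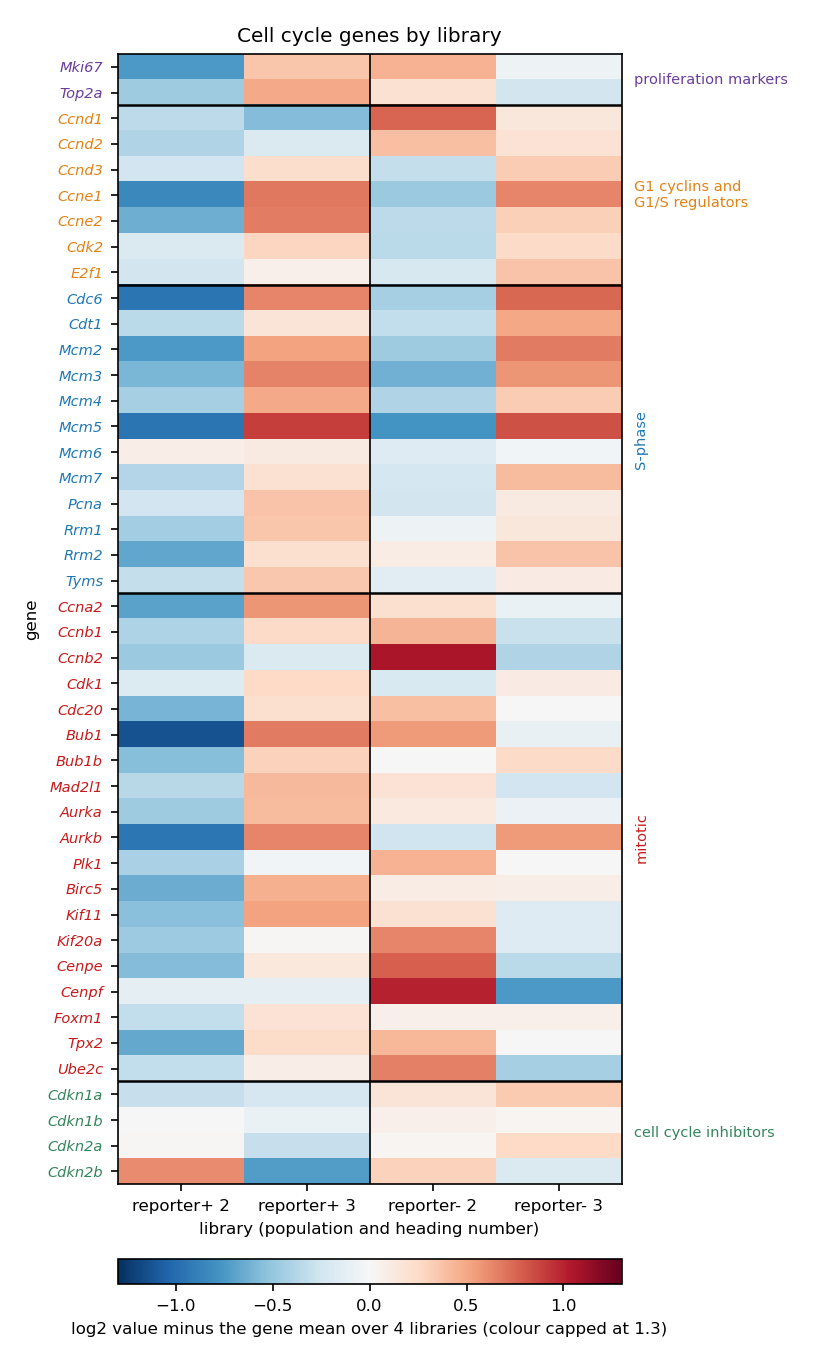
Each row is 1 of the 44 genes and each column 1 library, and the colour is the log2 value minus the gene's own mean over the 4 libraries, capped at 1.3. Apart from Mcm6 and Rrm2, S-phase genes are low in both libraries of number 2 and high in both of number 3, whereas most mitotic genes are lowest in the reporter+ library of number 2 and highest in either the reporter- library of number 2 or the reporter+ library of number 3.

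The proliferation markers Mki67, the Ki-67 antigen of cycling cells, and Top2a, the topoisomerase that untangles replicated chromosomes, showed the reversal. Mki67 had log2 values of 0.42 in reporter+ number 2, 1.53 in reporter+ number 3, 1.61 in reporter- number 2 and 1.10 in reporter- number 3. Top2a had values of 1.72, 2.68, 2.38 and 1.95 in the same order. For both genes the lowest value was that of reporter+ number 2, and the populations overlapped. Mki67 was 2.29-fold lower in reporter+ cells in number 2 and 1.35-fold higher in number 3, and Top2a was 1.58-fold lower and 1.66-fold higher. Over both numbers the difference was -0.38 ± 0.46 (SE) for Mki67 and 0.04 ± 0.39 for Top2a.

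Among the mitotic genes 18 of 19 were lower in reporter+ cells in number 2 and 18 of 19 were higher in number 3, with median differences of -0.87 and 0.38 on the log2 scale. Both held for 17 of the 19, and for 24.9% of all genes tested. Over all genes the medians of the pair differences were 0.0011 and -0.02. A difference within 1 number compares 1 library with 1 library and has no replicate, so neither value nor the change between them was tested. In all, 7 of the 19 had their lowest value in reporter+ number 2 and their highest in reporter- number 2, beside 2.73% of all genes.

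Bub1, a kinase of the spindle assembly checkpoint, differed most. Its log2 values were -2.94 in reporter+ number 2, -1.14 in reporter+ number 3, -1.26 in reporter- number 2 and -1.90 in reporter- number 3. It was thus 3.20-fold lower in reporter+ cells in number 2 and 1.70-fold higher in number 3. Bub1b, which encodes BubR1 of the same checkpoint, had differences of -0.55 and 0.04, and Mad2l1, which encodes Mad2, of -0.56 and 0.68. Cdc20, the activator of the anaphase-promoting complex on which the checkpoint acts, had differences of -0.99 and 0.20. The ubiquitin-conjugating enzyme of that complex, Ube2c, had differences of -0.97 and 0.51. The checkpoint genes and their target therefore shared their signs in both numbers, with the larger difference in number 2 except for Mad2l1.

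The mitotic cyclins had the same signs. Ccnb2 (cyclin B2) had log2 values of 0.33 in reporter+ number 2, 0.63 in reporter+ number 3, 1.87 in reporter- number 2 and 0.42 in reporter- number 3, and the reporter- library of number 2 stood above the other 3. Ccnb1 (cyclin B1) had differences of -0.84 in number 2 and 0.54 in number 3, and Ccna2 (cyclin A2), which acts from S phase into mitosis, of -0.90 and 0.66. Their kinase did not follow them: Cdk1 had values of 1.40 and 1.83 in reporter+ and 1.37 and 1.68 in reporter- cells, with pair differences of 0.02 and 0.15. Over both numbers the fitted difference was -0.67 ± 0.55 for Ccnb2 and 0.08 ± 0.26 for Cdk1.

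Cenpe, a kinetochore motor, and Cenpf, another protein of the kinetochore, were both highest in the reporter- library of number 2. Cenpe had log2 values of -0.93 in reporter+ number 2, -0.22 in reporter+ number 3, 0.41 in reporter- number 2 and -0.71 in reporter- number 3. Cenpf had values of -0.71, -0.70, 0.42 and -1.32 in the same order. The reporter+ values of Cenpf differed by 0.01, and its reversal lay in the reporter- libraries, which were 1.74 apart. Of the spindle motors and spindle assembly genes, Kif11 (the Eg5 kinesin) had pair differences of -0.74 and 0.69, Kif20a of -1.10 and 0.18, and Tpx2, an activator of Aurora A, of -1.10 and 0.25.

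The mitotic kinases and FoxM1 were less uniform. Aurka (Aurora A) had pair differences of -0.60 in number 2 and 0.48 in number 3. Aurkb (Aurora B) had differences of -0.69 and 0.08, and Birc5 (survivin), its partner in the chromosomal passenger complex, of -0.73 and 0.38. Plk1, Polo-like kinase 1, was lower in reporter+ cells in both numbers, by 0.87 and by 0.04, and was the 1 mitotic gene of 19 whose populations did not overlap, where 8.1% of all genes lay lower in reporter+ cells without overlap. Foxm1, the transcription factor of the mitotic gene programme, had the small differences of -0.38 and 0.12.

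**Figure D2:**
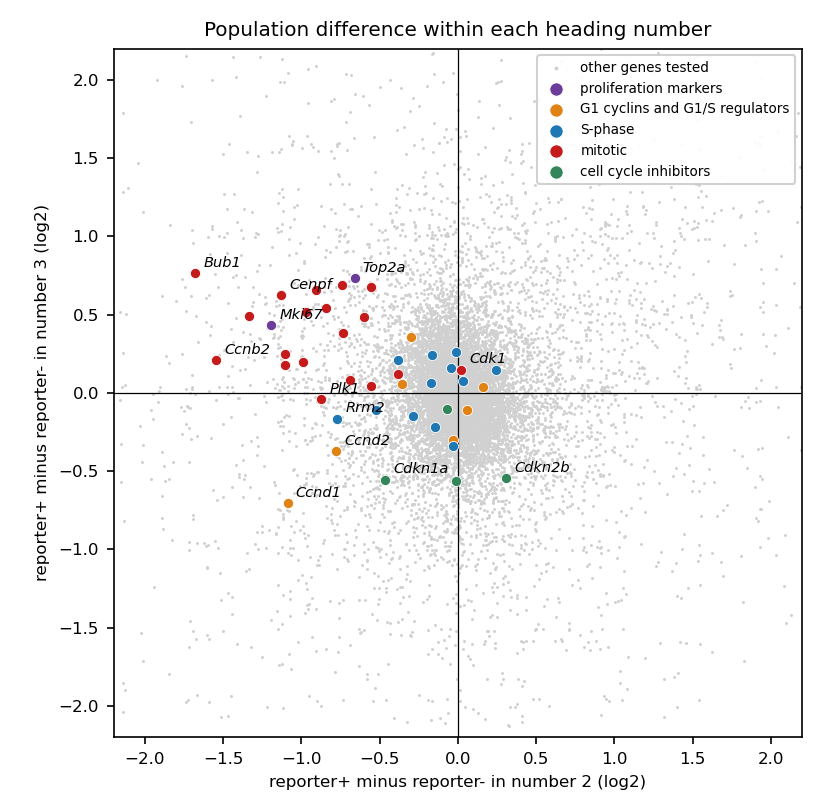
Each point is a gene, placed by the reporter+ minus reporter- difference (log2) in number 2 on the horizontal axis and in number 3 on the vertical axis, with the 5 groups of members in colour and the other genes tested in grey; genes beyond 2.2 on either axis are not drawn. The mitotic genes and proliferation markers lie mostly at the upper left, the S-phase genes lie near the centre, and Ccnd1, Ccnd2 and Cdkn1a lie at the lower left.

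S-phase genes had smaller median differences between the populations than the mitotic genes in both numbers. Their median difference between reporter+ and reporter- cells was -0.07 over both numbers, -0.15 in number 2 and 0.07 in number 3, and the single genes ranged from -0.47 for Rrm2 to 0.20 for Mcm6 over both numbers. In number 2, 10 of the 12 were lower in reporter+ cells. Of the 12, 5 were lower in both numbers and 2 were higher in both, beside 24.8% and 22.1% of all genes, and the other 5 were lower in number 2 and higher in number 3, as were most mitotic genes and 24.9% of all genes. Mcm6 was the 1 S-phase gene whose reporter+ values (2.28 and 2.31) both lay above its reporter- values (2.03 and 2.17), and 7.59% of all genes did so. Its fitted difference was 0.20 ± 0.17 with an unadjusted p = 0.306 by limma. Rrm2, the small subunit of ribonucleotide reductase, had the largest pair difference of the group, -0.77 in number 2. With 1 library left out, the median of the group lay between -0.53 (without reporter- number 2) and 0.39 (without reporter+ number 2). A p that misses the threshold with 2 libraries per population does not show that the populations had equal levels.

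Across numbers the S-phase genes shared 1 direction in both populations. All 12 were higher in number 3 than in number 2 within reporter+ cells and all 12 within reporter- cells, beside 54% and 54.4% of all genes. For 11 of the 12 there was no overlap between numbers, as for 36.4% of all genes in this direction. The median difference was 0.64 on the log2 scale, beside 0.05 over all genes. Limma with population as a covariate and adjustment over 14415 genes called 7 S-phase genes higher in number 3 (Cdc6, Mcm2, Mcm3, Mcm4, Mcm5, Mcm7 and Pcna), where 11.5% of all genes were called higher and 9.79% lower. Over all 44 members it called 11 higher and 1 lower, and 19 members had an unadjusted p under 0.05, beside 34.8% of all genes. Fitted without a trend of the variance on the level, limma called 0 members and 0 genes in all, with 13 members and 3909 genes at an unadjusted p under 0.05 and a smallest adjusted p among members of 0.0607. The calls between numbers thus rest on the variance trend, and each gene has 1 residual degree of freedom of its own. Other settings ended the calls of Cdk2 (adjusted p = 0.0557 with centred libraries, 0.0754 and 0.0949 with pseudocounts of 0.1 and 1), of Pcna (0.0659) and Cdkn2b (0.0663) with a pseudocount of 1, and of Cdc6 (0.0558) and Aurkb (0.0558) without the population term, all by limma.

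Mcm5, a subunit of the replicative helicase, differed most between numbers. Its log2 values were -0.86 in reporter+ number 2, 0.99 in reporter+ number 3, -0.68 in reporter- number 2 and 0.93 in reporter- number 3. It was 3.31-fold higher in number 3, a difference of 1.73 ± 0.24 (SE; limma, adjusted p = 0.0013, 2 libraries per number). Both number 3 libraries lay above both number 2 libraries, by more than the populations differed within either number. Mcm2, Mcm3 and Mcm4 were 1.21 ± 0.19, 1.22 ± 0.20 and 0.83 ± 0.15 higher, and Mcm7 was 0.61 ± 0.13 higher, with adjusted p of 0.0028, 0.0034, 0.0045 and 0.0126 by limma. Mcm6, a subunit of the same hexamer, was 0.08 ± 0.15 higher, with an adjusted p = 0.735 by limma. Of the 6 MCM subunits, 5 were therefore called and the sixth was not, and whether Mcm6 differed from the others was not tested.

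Of the genes that load the helicase, Cdc6 had log2 values of -3.34 in reporter+ number 2, -1.75 in reporter+ number 3, -2.81 in reporter- number 2 and -1.64 in reporter- number 3. Its difference between numbers was 1.38 ± 0.41 (limma, adjusted p = 0.0424). Cdt1 was 0.67 ± 0.24 higher in number 3, which missed the threshold (limma, adjusted p = 0.0818). Pcna, the sliding clamp of the replicative polymerases, was 0.49 ± 0.12 higher with an adjusted p = 0.0239 by limma. The nucleotide genes Rrm1, Rrm2 and Tyms had differences of 0.51, 0.57 and 0.45, with adjusted p of 0.0665, 0.0854 and 0.197 by limma, and each differed more in reporter+ than in reporter- cells (0.81 against 0.22 for Rrm1).

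Mitotic genes behaved otherwise between numbers. Within reporter+ cells all 19 were higher in number 3, with a median of 0.79 beside 0.84 for the S-phase genes. Within reporter- cells 15 of the 19 were lower in number 3, with a median of -0.44 beside 0.69 for the S-phase genes. The 15 genes that were higher in reporter+ and lower in reporter- cells compare with 12.9% of all genes. The 4 exceptions were Aurkb, Cdk1, Bub1b and Foxm1, which were 0.81, 0.30, 0.25 and 0.0027 higher in number 3 in reporter- cells. Limma called 1 of the 19 mitotic genes between numbers, a smaller share than the 11.5% of all genes called higher and 9.79% called lower. This was Aurkb, with values of -1.66 and -0.98 in number 2 (reporter+, then reporter-) and -0.09 and -0.17 in number 3 and a difference of 1.19 ± 0.31 (limma, adjusted p = 0.0253, and 0.0558 without the population term).

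Centred on each gene's mean, the mitotic median minus the S-phase median was -0.04 in reporter+ number 2, -0.12 in reporter+ number 3, 0.67 in reporter- number 2 and -0.48 in reporter- number 3. The 2 groups stood at about the same level in both reporter+ libraries. The reporter- library of number 2 had a mitotic median of 0.39 and an S-phase median of -0.28 against the genes' own means. In the reporter- library of number 3 the S-phase median was 0.39, and the mitotic median, at -0.09, was close to the genes' means. Centring makes the 4 values of a gene depend on each other, so the gaps of the libraries are not independent. This is a description of 4 libraries, with no test.

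**Figure D3:**
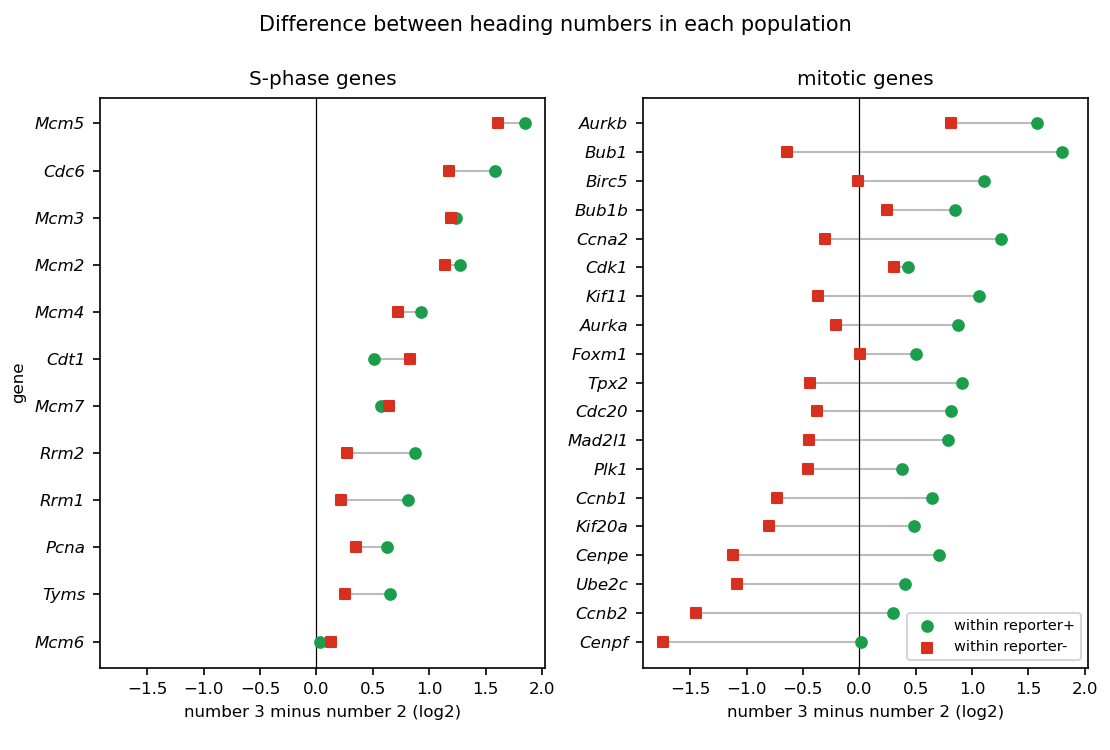
For each S-phase gene (left) and mitotic gene (right) the log2 difference of number 3 minus number 2 is drawn within reporter+ cells (green circles) and within reporter- cells (red squares), in the order of the fitted difference. All 12 S-phase genes lie right of 0 in both populations, whereas 15 of the 19 mitotic genes lie right of 0 in reporter+ and left of 0 in reporter- cells.

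Of the D cyclins, which couple growth factor signals to the cycle, Ccnd1 and Ccnd2 were lower in reporter+ cells in both numbers, and Ccnd3 was not. Ccnd1 (cyclin D1; chr7:144929931-144939925) had log2 values of 4.95 in reporter+ number 2, 4.72 in reporter+ number 3, 6.03 in reporter- number 2 and 5.43 in reporter- number 3. Both reporter+ values lay below both reporter- values. It was 2.13-fold lower in reporter+ cells in number 2 and 1.63-fold lower in number 3, and the fitted difference was -0.90 ± 0.25 (SE, n = 2 libraries per population; limma, unadjusted p = 0.0203, adjusted p = 1). With the heading number as a block, limma gave Ccnd1 an adjusted p of 0.0437, and of 0.53 with the block and no variance trend.

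Ccnd2 (cyclin D2; chr6:127125162-127152193) had values of 5.01 and 5.22 in reporter+ cells and of 5.79 and 5.59 in reporter- cells, again without overlap. Its fitted difference was -0.58 ± 0.17 (limma, unadjusted p = 0.0211, adjusted p = 1). Ccnd3 (cyclin D3) did not share it, with values of 4.09 and 4.56 in reporter+ and 4.03 and 4.67 in reporter- cells and a difference of -0.02 ± 0.30. Of all genes 8.1% had both reporter+ values below both reporter- values, and 6 of the 44 members did so: Ccnd1, Ccnd2, Plk1, Cdkn1a, Cdkn1b and Cdkn2a. In all, 12 of the 44 members were lower in reporter+ cells in both numbers, a share near the 24.8% of all genes.

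Of the 7 G1/S genes limma called 3 higher in number 3 and 0 lower, beside 11.5% and 9.79% of all genes. Ccne1 (cyclin E1), an E2F target that starts S phase with Cdk2, had values of 0.06 in reporter+ number 2, 1.58 in reporter+ number 3, 0.41 in reporter- number 2 and 1.52 in reporter- number 3. It was 2.49-fold higher in number 3, a difference of 1.32 ± 0.21 (limma, adjusted p = 0.0025). Ccnd3 was 0.56 ± 0.12 and Cdk2 0.53 ± 0.16 higher, with adjusted p of 0.0106 and 0.0496 by limma, while Ccne2 (0.98 ± 0.39) and E2f1 (0.44 ± 0.16) missed the threshold at 0.113 and 0.0832. Ccnd1 was 0.42 lower in number 3 with an adjusted p = 0.0526 by limma, and Ccnd2 differed by 0.0037. The median of the 7 genes was -0.15 between populations, and it was -0.62 without the reporter+ library of number 3, -0.45 without the reporter- library of number 2, 0.21 without the reporter+ library of number 2 and 0.30 without the reporter- library of number 3.

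All 4 inhibitors had a lower mean in reporter+ cells over both numbers, with a median difference of -0.20. The median was -0.04 in number 2, where Cdkn2b was higher in reporter+ cells, and -0.55 in number 3. It was -0.46 without the reporter+ library of number 2 and -0.091 without that of number 3. Cdkn1a (p21; chr17:29090976-29100727), a p53 target that binds cyclin-dependent kinases, had values of 4.92 and 5.00 in reporter+ cells and of 5.38 and 5.55 in reporter- cells. The populations did not overlap, and the pair differences of -0.47 and -0.56 were close to each other. The fitted difference was -0.51 ± 0.15 (limma, unadjusted p = 0.0215, adjusted p = 1). Cdkn1b (p27) had values of 3.88 and 3.80 in reporter+ and 3.95 and 3.91 in reporter- cells, a difference of -0.09 ± 0.14.

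Cdkn2a, whose locus makes both p16INK4a and p19ARF, had values of 4.72 and 4.41 in reporter+ and of 4.73 and 4.97 in reporter- cells. Its difference lay in number 3 (-0.56) and not in number 2 (-0.01), and the value per gene does not separate the 2 products. Cdkn2b (p15INK4b; chr4:89306299-89311039), the neighbouring INK4 gene, had the widest spread of the inhibitors, with values of 5.46 in reporter+ number 2, 4.12 in reporter+ number 3, 5.15 in reporter- number 2 and 4.66 in reporter- number 3. It was the 1 member called lower in number 3, by 0.91 ± 0.18 (limma, adjusted p = 0.0085), a direction opposite to that of the S-phase genes. It was also the 1 member whose number 3 values both lay below its number 2 values, as did 28.8% of all genes. Cdkn1a, Cdkn1b and Cdkn2a differed between numbers by 0.13, -0.06 and -0.04, and none was called.

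**Figure D4:**
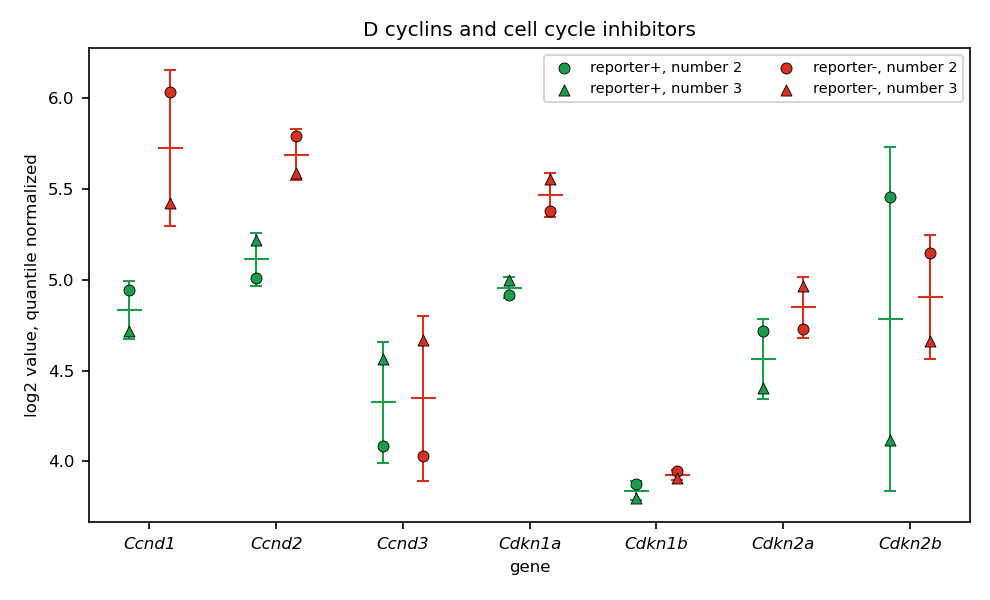
Log2 values of the 3 D cyclins and the 4 inhibitors in each library, with reporter+ in green, reporter- in red, number 2 as circles and number 3 as triangles; the horizontal bar is the population mean and the error bar the SD of 2 libraries, on an axis that does not start at 0. Ccnd1, Ccnd2 and Cdkn1a lie lower in both reporter+ libraries, and Cdkn2b is split by number in reporter+ cells.

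Other genes of the same pathways, from lists that overlap no member, were read in the same way. Of 60 other mitotic genes 41 were lower in reporter+ cells in number 2 and higher in number 3, as were 24.9% of all genes, with medians of -0.61 and 0.24. The rule for naming took the genes at either end of each list whose log2 values averaged 0 or more. Between populations these were Cdca3 (-0.50) and the centromeric histone Cenpa (-0.40) at the low end and the condensin subunits Smc4 (0.35) and Smc2 (0.04) at the high end. Cenpa had values of 0.06 and -0.05 in reporter+ and of 1.13 and -0.31 in reporter- cells, so the reporter- library of number 2 stood above the rest, as for Ccnb2. Between numbers limma called 4 of the 60 higher and 1 lower, smaller shares than the 11.5% and 9.79% of all genes. At the ends stood Cks1b (1.31 ± 0.13, adjusted p = 2.0e-04 by limma), the condensin subunit Ncaph (0.93 ± 0.27, adjusted p = 0.0382 by limma, and 0.071 without the population term), Cenpa (-0.78, not called) and Smc4 (-0.71 ± 0.14, adjusted p = 0.0086 by limma, and 0.0689 without the population term).

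Of 47 other replication genes 41 were higher in number 3, beside 7837 of 14415 genes tested, with a median of 0.52, and limma called 12 higher and 0 lower, beside 11.5% and 9.79% of all genes. The reversal shown by most mitotic genes was seen in 17, beside 24.9% of all genes, and their medians between populations were -0.02 in number 2 and 0.04 in number 3. Tk1, thymidine kinase, had values of -0.45 and -0.32 in number 2 and of 1.19 and 1.39 in number 3 (reporter+, then reporter-), and was 1.68 ± 0.21 higher (limma, adjusted p = 9.24e-04). Cdc7, the kinase that fires origins, was 1.28 ± 0.23 higher (limma, adjusted p = 0.0052). At the other end the clamp loader subunits Rfc3 and Rfc2 had differences of -0.42 and -0.27 and were not called. Between populations the ends were Cdc7 (0.49), Rpa2 (0.32), Uhrf1 (-0.29) and Chaf1a (-0.28), and none was called.

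Of the 69 replication-dependent histone genes 60 were measured in all libraries. Limma called 31 of them higher and 1 lower in number 3, beside 11.5% and 9.79% of all genes, with a median of 0.68. Hist1h2ag and Hist1h3a were 1.95 ± 0.51 and 1.90 ± 0.20 higher (limma, adjusted p = 0.0272 and 3.05e-04), Hist1h2bq was 1.90 lower (limma, adjusted p = 0.0045), the calls of Hist1h2ag and Hist1h2bq being lost without the population term (0.158 and 0.118), and Hist1h1c had a difference of -0.33 and was not called. Hist1h2ag had values of -1.69 in reporter+ number 2, 1.65 in reporter+ number 3, 0.81 in reporter- number 2 and 1.36 in reporter- number 3, and its difference between numbers was 3.34 within reporter+ and 0.55 within reporter- cells. Between populations Hist1h2br (0.50) and Hist1h2ak (0.18) stood at the high end and Hist1h2bq (-1.21) and Hist1h2ag (-1.11) at the low end, none of them called. Hist1h2bq was low in the reporter+ library of number 3 alone (0.08 against 2.19 to 3.19 elsewhere). Copies of these genes are nearly identical, so their reads may be split between them and single values are uncertain.

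Of 24 other G1/S regulators 23 were measured throughout. Among these 3 were called higher and 0 lower in number 3, beside 11.5% and 9.79% of all genes, so the higher calls were near that share. Cdc25a, the phosphatase that frees Cdk2, was 0.88 ± 0.20 higher (limma, adjusted p = 0.0149), and Skp2, which directs p27 to degradation, had a difference of 0.64 that was not called. Rb1 and Lin37 had differences of -0.21 and -0.17. Between populations Lin52 (0.19), E2f5 (0.09), Cdk6 (-0.17) and Rb1 (-0.16) stood at the ends.

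Among 18 other inhibitors and p53 targets 2 were called higher and 3 lower in number 3, beside 11.5% and 9.79% of all genes, so the higher calls were near that share. Cdkn1c (p57) had values of 2.11 and 1.34 in number 2 and of 3.96 and 3.74 in number 3 (reporter+, then reporter-), 2.12 ± 0.16 higher (limma, adjusted p = 6.1e-05). Cdkn2c (p18INK4c) had values of 4.25 and 4.13 in number 2 and of 2.60 and 2.54 in number 3, 1.62 lower (limma, adjusted p = 6.1e-05). Trp53 was 0.64 ± 0.12 higher (limma, adjusted p = 0.0069) and Btg2, an antiproliferative p53 target, 1.12 lower (limma, adjusted p = 6.82e-04). Between populations the ends were Cdkn1c (0.49), Gadd45a (0.21), Btg2 (-0.53) and Phlda3 (-0.42), none of them called. Of the 18 genes 6 had both reporter+ values below both reporter- values, and 2 had both above, beside 8.1% and 7.59% of all genes. Among the CIP/KIP and INK4 genes, Cdkn1c was thus called higher in number 3, and Cdkn2b and Cdkn2c were called lower. The other CIP/KIP and INK4 genes measured were not called, and the families were not compared by a test.

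An exon of 11 members overlaps a gene on the other strand (Ccnd1, Ccnd2, Ccnd3, Ccne2, Mcm7, Ccna2, Cdc20, Plk1, Kif20a, Ube2c and Cdkn1a), and 1 of Foxm1 overlaps genes on the same strand. The libraries were stranded, but whether counting used strand is not given in the sources used here, so reads of such partners may be included.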

How the data were processed

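Total RNA of the 4 libraries was sequenced after stranded paired-end preparation. The submitters' processing notes name bcl2fastq 2.17.1.14, Partek 7.0 and the mouse build GRCm38.p6, and the aligner and counter are not given in the sources used here. The authors deposited log2 values after quantile normalization, 1 per gene symbol, with blanks for genes without a value; the symbols with a value numbered 15423 to 15605 per library. Columns name the population and a number, so a column was assigned to its population and not to a GEO replicate.

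The members and all lists were chosen with earlier results of these data known. The 14415 genes measured in every library were fitted with limma 3.58.1 in R 4.3.3 (lmFit and eBayes with trend=TRUE, two-sided), without a block for reporter+ against reporter- and with population as a covariate for number 3 against number 2, and p-values were adjusted by Benjamini-Hochberg over all 14415 genes at a threshold of 0.05. Differences within a number are 1 library minus 1 library and have no test. An exact permutation test of 2 against 2 libraries cannot give a p under 0.333 and was not used. All 44 members are named; of each pathway list the 2 genes with the largest and the 2 with the smallest difference in each comparison are named, among genes whose log2 values averaged 0 or more. Gene positions and overlaps are those of GENCODE M21, and promoters those of RefSeq (GRCm38.p6). The fits were tested on simulated data before use.

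Alternatives were a pseudocount of 0.1 or 1, a filter on the mean log2 value, centred libraries, no variance trend, no population term, heading number as a block, blanks left missing and each library left out.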

Additional observations from a re-analysis of the deposited data

Results flagged for a closer look

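The difference between reporter+ and reporter- cells had opposite signs in the 2 numbers, most widely in mitotic genes and proliferation markers. The median of the 19 mitotic genes was -0.87 in number 2 and 0.38 in number 3. The median of the 2 proliferation markers was -0.93 in number 2 and 0.58 in number 3. The median of the 60 other mitotic genes was -0.61 in number 2 and 0.24 in number 3. The medians of 5 further groups also differed in sign, by less: S-phase genes (-0.15 and 0.07), other replication genes (-0.02 and 0.04), other G1/S regulators (-0.13 and 0.01), other inhibitors and p53 targets (-0.17 and 0.06) and replication-dependent histones (-0.16 and 0.02). The median over all 14415 genes was 0.0011 in number 2 and -0.02 in number 3. It thus also changed sign, but in the opposite direction and by less than in any of these groups. The medians of G1 cyclins and G1/S regulators (-0.30 and -0.11) and of cell cycle inhibitors (-0.04 and -0.55) kept their sign. A median can change sign where single genes do not. Of the 18 other inhibitors and p53 targets 8 were lower and 5 higher in reporter+ cells in both numbers, beside 24.8% and 22.1% of all genes. Each value compares 1 library with 1 library, and the difference between numbers was not tested.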

How the results depend on the processing

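The heading numbers were not stated to mark a shared mouse, litter or culture, and there are only 2 of them, so they were not used as pairs in the tests, and differences within a number are descriptions. The deviations of same-numbered libraries from their population means were correlated across genes (r = 0.682). With the number as a replicate block, limma called 1 member between populations, Ccnd1 (adjusted p = 0.0437, the same difference of -0.90), and 29 genes in all; with the block and no variance trend it called 0, with an adjusted p = 0.53 for Ccnd1. Without a block and without the variance trend 1 member had an unadjusted p under 0.05 between populations, in place of 3. Between numbers the 12 calls became 0 without the variance trend, as the report gives, and with a library left out a difference but no test was possible, since no residual degree of freedom remained. The median difference between numbers was 0.35 for G1 cyclins and G1/S regulators and 0.44 for S-phase genes with a pseudocount of 1. Among mitotic genes whose log2 values averaged 0 or more, 10 of 11 had the reversal. Without the population term the calls of Ncaph, Smc4, Hist1h2ag and Hist1h2bq between numbers were lost, and those of Ncaph and Hist1h2ag with either pseudocount. The other alternatives left the population calls at 0 members.

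When 1 library was dropped at a time, the members with an unadjusted p under 0.05 between populations numbered 0 to 3. The medians between populations ran from -0.62 to 0.30 for G1 cyclins and G1/S regulators and from -0.53 to 0.39 for S-phase genes, and the S-phase median between numbers ran from 0.69 to 0.84. The population difference was refitted for the 16 members with the same sign in both numbers and for 20 named pathway genes, and it changed sign for 24 of these 36. Of the other 28 members, whose sign differed between numbers, the mean difference changed sign for 27. Among the 36 it ran from -0.20 to 0.40 for Cdk2, -0.45 to 0.12 for E2f1, -1.11 to 0.48 for Cdc6, -0.60 to 0.23 for Cdt1, -0.86 to 0.42 for Mcm2, -0.57 to 0.67 for Mcm3, -0.51 to 0.14 for Mcm7 and -0.13 to 0.30 for Cdk1. It ran from -0.31 to 1.28 for Cdc7, -0.29 to 0.93 for Rpa2, -0.75 to 0.18 for Uhrf1, -0.78 to 0.21 for Chaf1a, -0.089 to 0.80 for Smc4, -0.36 to 0.43 for Smc2, -1.13 to 0.32 for Cenpa, -0.026 to 0.40 for Lin52, -0.40 to 0.073 for Rb1, -0.71 to 1.70 for Cdkn1c, -0.0027 to 0.43 for Gadd45a and -1.15 to 0.088 for Btg2. It ran from -0.67 to 1.67 for Hist1h2br, -0.20 to 0.56 for Hist1h2ak, -2.61 to 0.18 for Hist1h2bq and -2.78 to 0.56 for Hist1h2ag. Between numbers Rb1 ran from -0.47 to 0.044. The causes were not tested. Depth is unknown, so it cannot be said which low values it limits.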
